A study of Mus musculus with 15 samples.

Results

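Metallothioneins and zinc transporters were followed in mouse liver after Roux-en-Y gastric bypass. The genes were chosen by symbol, as 8 named genes: Mt1, Mt2, Mtf1, Slc39a14, Slc39a4, Slc39a8, Slc30a1 and Slc30a10. A gene was measured where the array had a transcript cluster (the set of probes for a gene) named by its symbol alone, which held for 6 of the 8 among 22180 genes in all. Slc30a1 and Slc30a10 lie only on clusters that also carry another symbol, 2 clusters each, and no value is given for them. The other 6 genes had 1 such cluster each. Values are log2 signals from the robust multi-array average (RMA), on which a difference of 1 is a 2-fold difference. They do not give absolute amounts, and levels of different genes are not compared.

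Liver RNA was taken from 15 male ApoE*3Leiden.CETP mice, all of which carry a human APOE variant and human CETP as transgenes, and 1 array was run per mouse. All mice were 9 to 12 weeks old when obtained, had 2 weeks to acclimate and then 6 weeks of HFDC diet (fat 60%, cholesterol 0.25%) before their operation, and were killed 20 days after it. In 6 mice the operation was Roux-en-Y gastric bypass (RYGB). A sham operation was done in 4 mice whose body weight was then matched to that of the RYGB mice (BWm) and in 5 mice with free access to food (Sham AL). RYGB against Sham AL therefore sets bypass surgery together with weight loss against sham surgery with free feeding. RYGB against BWm sets bypass surgery against sham surgery at a matched weight. BWm against Sham AL sets weight matching against free feeding, both after sham surgery. The transgenes and the diet are shared by all groups, and no chow-fed or unoperated liver was analysed here.

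Metallothioneins are small, cysteine-rich proteins of the cytosol that bind zinc and copper and act as a store and buffer for these metals. Their genes are switched on by the zinc-sensing factor MTF1, and in liver also by glucocorticoids and by interleukin 6. Zinc enters the cytosol through importers of the Slc39a family (ZIP proteins), from outside the cell or from organelles, and leaves it through exporters of the Slc30a family (ZnT proteins). In liver, Slc39a14 and Slc39a8 also carry manganese and iron, and Slc30a10 exports manganese.

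Mt1 and Mt2 are neighbours on chromosome 8, and their promoters are shown because both genes moved together on these arrays. The windows run from 250 bases before the start site to 50 bases after it and come from RefSeq (GRCm38.p6). The Mt1 window lies at chr8:94178839-94179138 and the Mt2 window at chr8:94172368-94172667, both on the plus strand. Capitals mark the core of the metal response element, the sequence that MTF1 is known to bind, searched as TGCACNC and TGCGCNC on both strands.
Mt1: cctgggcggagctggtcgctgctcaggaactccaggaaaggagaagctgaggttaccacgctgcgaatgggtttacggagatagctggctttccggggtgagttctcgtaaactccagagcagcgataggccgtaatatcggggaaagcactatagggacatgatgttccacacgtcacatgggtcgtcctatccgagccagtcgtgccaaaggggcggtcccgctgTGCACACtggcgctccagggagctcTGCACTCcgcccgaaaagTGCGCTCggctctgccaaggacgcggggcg
Mt2: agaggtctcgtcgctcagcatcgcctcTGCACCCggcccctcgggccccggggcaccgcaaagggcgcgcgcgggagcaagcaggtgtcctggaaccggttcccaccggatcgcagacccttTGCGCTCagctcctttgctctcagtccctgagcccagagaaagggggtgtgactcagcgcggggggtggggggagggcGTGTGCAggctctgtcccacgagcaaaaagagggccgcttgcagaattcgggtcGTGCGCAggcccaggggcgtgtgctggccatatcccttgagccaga
The Mt1 window held 3 matches, all on the plus strand, and the Mt2 window held 4, on both strands. No match in these 2 windows overlapped another. Some lay after the start site annotated in RefSeq, at bases 2 to 8 and 20 to 26 in Mt1 and 4 to 10 in Mt2. Where transcription starts in these livers was not examined, so these matches are not shown to lie in transcribed sequence. Sequence outside the windows was not searched, so these are not counts for the whole promoter. Of 32851 windows of this length, 1.97% held at least 3 matches and 0.517% at least 4. Windows were found for 6 of the 8 genes, and not for Slc39a14 and Slc39a4. The window of Slc30a1 held 2 matches and that of Slc30a10 held 3, of which a pair overlapped on opposite strands. The window of Mtf1 held 0 matches, and the windows of the 2 start sites of Slc39a8 held 0 and 1. Of all windows, 25.7% held at least 1 match and 7.11% at least 2. A match describes the sequence and does not show binding.

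Hepatocyte transcripts marked every array as liver. Alb ran from 12.83 to 12.93 and Ttr from 12.45 to 12.68 over the 15 arrays, whereas the Ass1 cluster ran only from 4.41 to 5.98, near the array medians of 3.89 to 4.02. The array of Sham AL replicate 4 also carried transcripts of adrenal cortex and fat. Cyp11a1 measured 10.36 there and at most 3.6 on the other 14 arrays, and for Ucp1 these values were 11.89 and 4.54. Values that rest on this array are given with and without it. The labels call the mice of a group biological replicates.

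**Figure D1:**
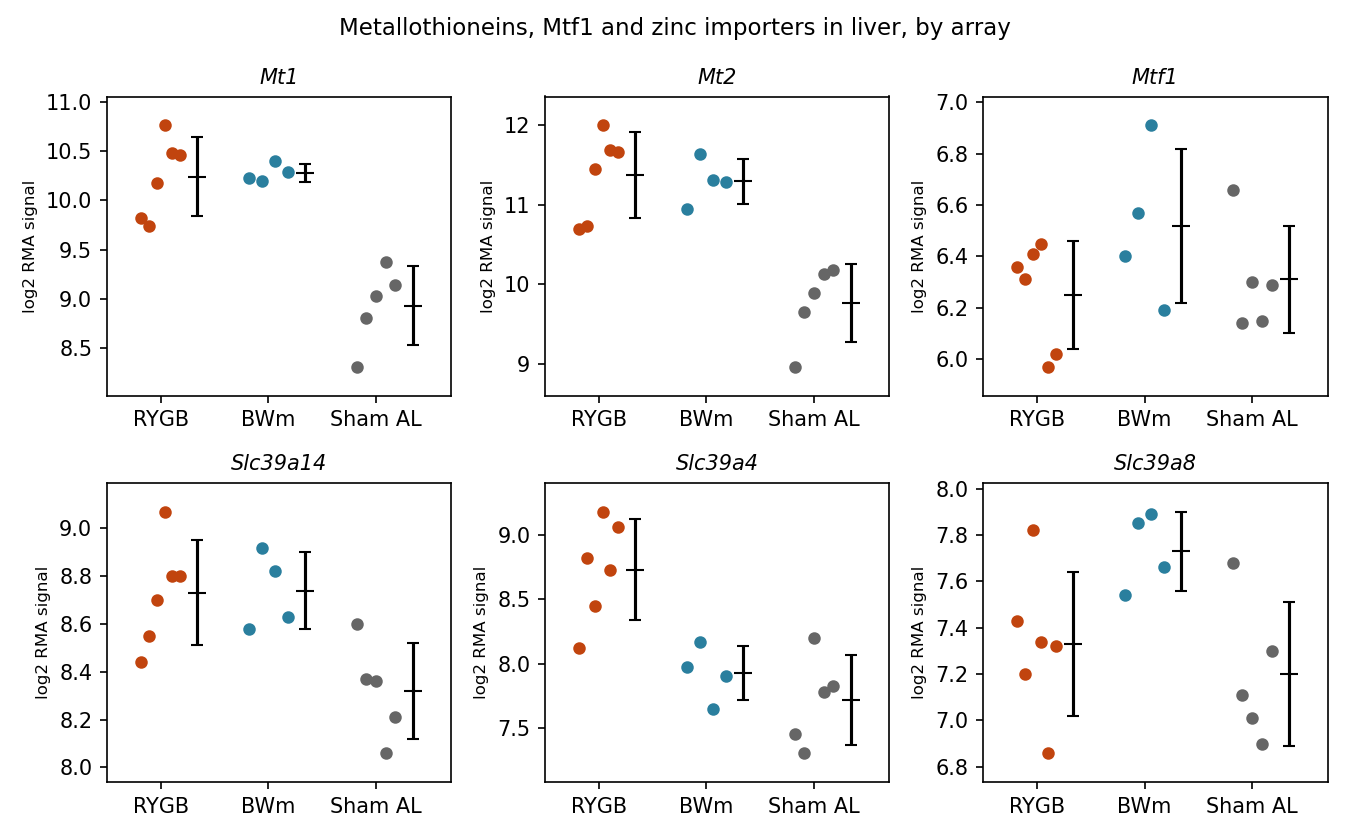
Log2 RMA signal of the 6 measured genes in liver. Each point is 1 array (6 RYGB, 4 BWm, 5 Sham AL), and the bar beside the points is the group mean with its SD; vertical axes differ between genes and do not start at 0. Mt1 and Mt2 are higher on every RYGB and BWm array than on any Sham AL array, and Slc39a4 is highest in RYGB.

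Both metallothioneins were higher in RYGB and in BWm livers than in Sham AL livers, and RYGB and BWm overlapped. Mt1 on the RYGB arrays had a lowest value of 9.74, a median of 10.32 and a highest value of 10.76. It measured 10.23, 10.2, 10.4 and 10.29 in BWm livers, against 8.31, 8.8, 9.03, 9.37 and 9.14 in Sham AL livers. All RYGB and all BWm arrays thus lay above all Sham AL arrays, while the BWm arrays lay inside the range of the RYGB arrays. The group means were 10.24 ± 0.4 in RYGB (SD, n = 6), 10.28 ± 0.09 in BWm (SD, n = 4) and 8.93 ± 0.4 in Sham AL (SD, n = 5). This put Mt1 2.48-fold higher in RYGB than in Sham AL (log2 1.31 ± 0.19, SE) and 2.54-fold higher in BWm than in Sham AL (log2 1.35 ± 0.21, SE). RYGB minus BWm was log2 -0.04 ± 0.2 (SE), with a 95% interval of -0.46 to 0.38.

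Mt2 was likewise lowest in Sham AL livers. Its RYGB values had a lowest of 10.69, a median of 11.56 and a highest of 11.99. It measured 10.95, 11.63, 11.31 and 11.28 in BWm livers, against 8.97, 9.66, 9.89, 10.13 and 10.18 in Sham AL livers. Here too neither RYGB nor BWm overlapped Sham AL, and the BWm values fell within the RYGB range. Its means were 11.37 ± 0.54 in RYGB (SD, n = 6), 11.29 ± 0.28 in BWm (SD, n = 4) and 9.77 ± 0.49 in Sham AL (SD, n = 5). Mt2 was 3.03-fold higher in RYGB than in Sham AL (log2 1.6 ± 0.24, SE) and 2.88-fold higher in BWm than in Sham AL (log2 1.53 ± 0.27, SE). RYGB minus BWm was log2 0.07 ± 0.26 (SE), with a 95% interval of -0.47 to 0.62. For both genes the interval holds differences in either direction. The comparisons with Sham AL use the same 5 Sham AL arrays.

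Within the RYGB group the metallothioneins were spread out. RYGB replicates 1 and 2 had the lowest values of both genes, with Mt1 at 9.82 and 9.74 and Mt2 at 10.69 and 10.73, and RYGB replicate 4 had the highest. The spread of Mt1 was 0.4 (SD) among RYGB arrays and 0.09 among BWm arrays. Over the 15 arrays, Mt1 and Mt2 had a Pearson r of 0.98, and of 0.92 after each group's mean was removed. The points share the array and its normalization, and how far probes of these similar genes pick up each other's transcripts was not tested.

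**Figure D2:**
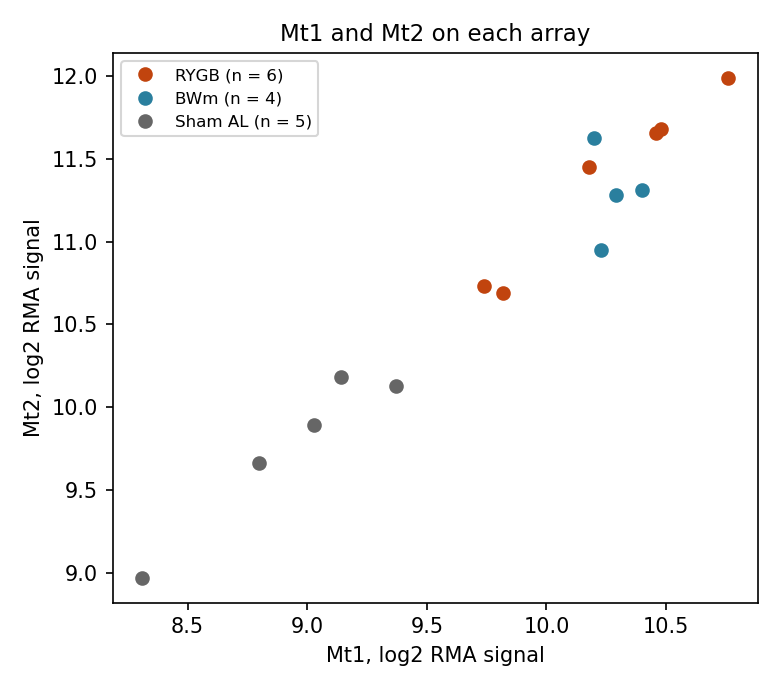
Log2 RMA signal of Mt2 (vertical) against Mt1 (horizontal), 1 point per array. The 5 Sham AL arrays lie at the lower left, at most 9.37 on the Mt1 axis, and all RYGB and BWm arrays lie to the upper right of them, with RYGB replicates 1 and 2 nearest to Sham AL.

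The descriptions of the samples carry a number whose meaning is not stated, under 50 for 3 RYGB and 1 Sham AL arrays and over 60 for the others. It ran with the metallothionein levels. Mt1 averaged 9.91 on the 3 RYGB arrays with a number under 50 and 10.57 on the 3 over 60, and the 1 Sham AL array under 50 had the lowest Mt1 of its group, 8.31. Among arrays numbered over 60, Mt1 averaged 10.57 in RYGB (n = 3), 10.28 in BWm (n = 4) and 9.09 in Sham AL (n = 4). The RYGB and BWm values all lay above the Sham AL values. RYGB and BWm nearly met, with a lowest RYGB value of 10.46 and a highest BWm value of 10.4. How many of all genes separate on these few arrays was not counted. Mt2 averaged 11.78, 11.29 and 9.97 on the same arrays of RYGB, BWm and Sham AL. With the number as a covariate in the fit, Mt1 was log2 1.52 higher in RYGB than in Sham AL and RYGB minus BWm was log2 0.31. For Mt2 these values were log2 1.86 and 0.51. Neither RYGB minus BWm value passed the threshold (limma, adjusted p = 0.222 for Mt1 and 0.119 for Mt2). Without Sham AL replicate 4, Mt1 was log2 1.42 higher in RYGB and 1.46 higher in BWm than in Sham AL, and Mt2 log2 1.69 and 1.62.

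Mt3 and Mt4, the metallothioneins known from brain and from stratified epithelia, were not called in any comparison. Mt3 measured 3.95 to 4.38 in RYGB, 4.1 to 4.17 in BWm and 3.97 to 4.87 in Sham AL livers, close to the array medians. Mt4 had a mean of 2.72 over the 15 arrays, under the lowest array median. Signal over background was not measured here, so such levels cannot be told from background.

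Mtf1, which encodes the zinc-sensing factor itself, overlapped between all 3 groups. It ran from 5.97 to 6.45 with a median of 6.33 on the RYGB arrays. It measured 6.4, 6.57, 6.91 and 6.19 in BWm livers, against 6.66, 6.14, 6.3, 6.15 and 6.29 in Sham AL livers. BWm replicate 3 was the highest array and RYGB replicate 5 the lowest. The differences were log2 -0.27 ± 0.15 for RYGB minus BWm, -0.05 ± 0.14 for RYGB minus Sham AL and 0.21 ± 0.15 for BWm minus Sham AL (SE). None of the 3 was past the threshold, and no neighbours in the order BWm, Sham AL, RYGB were separated beyond their spread. Over the 15 arrays Mtf1 had a Pearson r of -0.03 with Mt1 and of -0.05 with Mt2.

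Slc39a4, a zinc importer best known for taking up dietary zinc in the intestine, was higher in RYGB livers than in both sham-operated groups. Its RYGB values had a lowest of 8.12, a median of 8.77 and a highest of 9.18. It measured 7.98, 8.17, 7.65 and 7.91 in BWm livers, against 7.46, 7.31, 8.2, 7.78 and 7.83 in Sham AL livers. Of the 6 RYGB arrays, 5 lay above all BWm arrays and above all Sham AL arrays. The exception was RYGB replicate 1, which at 8.12 lay under BWm replicate 2 and Sham AL replicate 3. RYGB exceeded BWm 1.74-fold (log2 0.8 ± 0.19, SE) and Sham AL 2.01-fold (log2 1.01 ± 0.18, SE). BWm minus Sham AL was log2 0.21 ± 0.2 (SE), with a 95% interval of -0.22 to 0.64. With Sham AL replicate 4 left out, RYGB minus Sham AL was log2 1.03 and BWm minus Sham AL log2 0.23. Without BWm replicate 3, the lowest of its group, RYGB minus BWm was log2 0.71 and was no longer past the threshold in limma (adjusted p = 0.0762, range over 27 adjusted alternatives 0.00298 to 0.0921). In all, 3 of 28 alternatives ended this call. The methods' test after Benjamini-Hochberg adjustment was among them (adjusted p = 0.0921), and it also ended the call of RYGB against Sham AL (adjusted p = 0.117), the 1 alternative of 28 to do so.

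Markers of enterocytes and of exocrine pancreas are given as a description, and their part in the Slc39a4 level was not tested. Of 6 measured enterocyte markers, 0 were called higher and 1 lower in RYGB against Sham AL, beside 0.938% and 0.442% of all genes. In RYGB against BWm 0 were called either way, beside 6.36% of all genes. The mean of this list, relative to all arrays, ran from -0.41 to 0.25 in RYGB, from -0.17 to 0.34 in BWm and from -0.07 to 0.23 in Sham AL. For 5 exocrine pancreas markers it ran from -0.2 to 0.17, from -0.14 to 0.2 and from -0.05 to 0.14 in the same order. None of the 5 was called in RYGB against Sham AL, RYGB against BWm or BWm against Sham AL, beside 1.38%, 6.36% and 2.84% of all genes. Most of these markers lay under or near the array medians of 3.89 to 4.02 and cannot be told from background. Vil1, for example, had means of 3.36 in RYGB, 3.39 in BWm and 3.34 in Sham AL. Fabp2 was brighter, with means of 7.79, 8.24 and 9.16 in the same order. RMA values have no true 0, so no marker could be listed as absent. In whole liver, fewer cells of a type and less RNA per cell cannot be told apart.

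Slc39a14, an importer of the hepatocyte membrane that responds to interleukin 6, had means of 8.73 ± 0.22 in RYGB (SD, n = 6), 8.74 ± 0.16 in BWm (SD, n = 4) and 8.32 ± 0.2 in Sham AL (SD, n = 5). Its RYGB values ran from 8.44 to 9.07 with a median of 8.75. It measured 8.58, 8.92, 8.82 and 8.63 in BWm livers, against 8.6, 8.37, 8.36, 8.06 and 8.21 in Sham AL livers. Sham AL replicate 1 lay among the RYGB and BWm arrays, and the other 4 Sham AL arrays lay below all RYGB and BWm arrays. RYGB was log2 0.41 ± 0.12 and BWm log2 0.42 ± 0.13 above Sham AL (SE), and neither passed the threshold over all genes. Without Sham AL replicate 4, the lowest array, these values were log2 0.34 and 0.36. RYGB minus BWm was log2 -0.01 ± 0.13 (SE), with a 95% interval of -0.29 to 0.26.

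Slc39a8, a close relative of Slc39a14, had its highest mean in BWm livers (7.73 ± 0.17, SD, n = 4). It ran from 6.86 to 7.82 with a median of 7.33 on the RYGB arrays. It measured 7.54, 7.85, 7.89 and 7.66 in BWm livers, against 7.68, 7.11, 7.01, 6.9 and 7.3 in Sham AL livers. The BWm arrays overlapped RYGB through RYGB replicate 3 and Sham AL through Sham AL replicate 1. RYGB minus BWm was log2 -0.41 ± 0.17, BWm minus Sham AL was log2 0.54 ± 0.17 and RYGB minus Sham AL was log2 0.13 ± 0.16 (SE), and none passed the threshold. Both exceptions carry a description number under 50. With that number as a covariate, RYGB minus BWm was log2 -0.61 (limma, adjusted p = 0.0263, range over 27 adjusted alternatives 0.0263 to 0.376) and BWm minus Sham AL was log2 0.62 (adjusted p = 0.0302, range 0.0302 to 0.276). Without Sham AL replicate 1, BWm minus Sham AL was log2 0.66 (limma, adjusted p = 0.0425). It was log2 0.46 without Sham AL replicate 4, the lowest of its group (limma, adjusted p = 0.207).

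**Figure D3:**
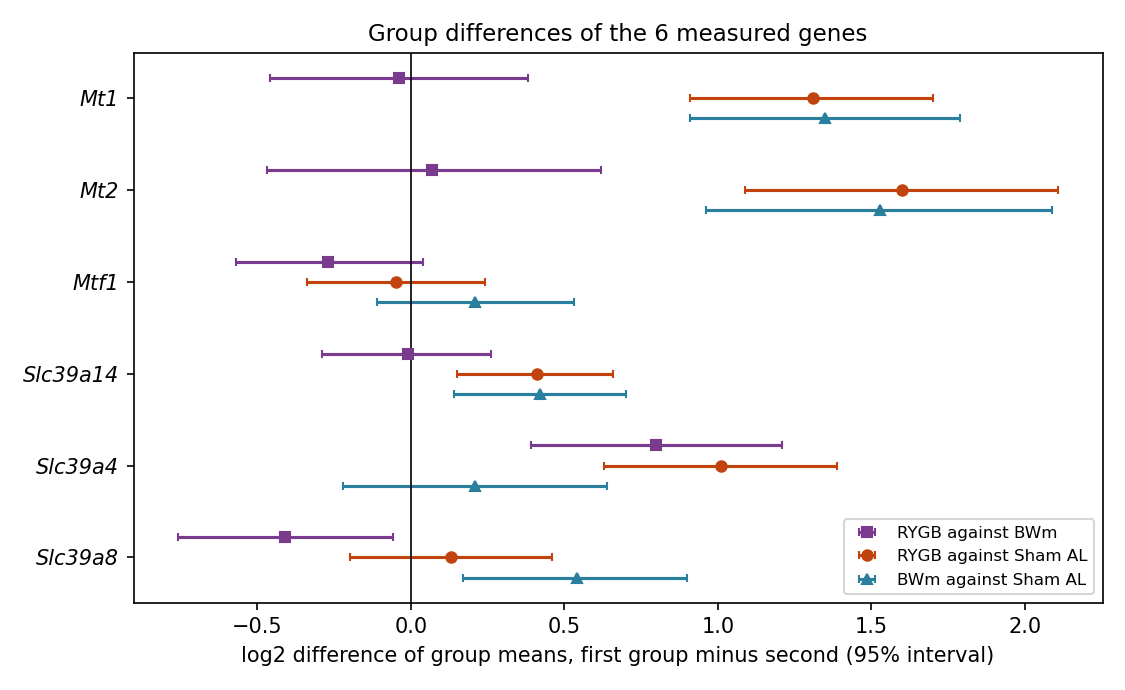
Differences of group means (log2) for the 6 measured genes in the 3 comparisons, with 95% intervals from the limma fit; the vertical line marks 0. Mt1 and Mt2 lie above 1 in both comparisons with Sham AL and near 0 in RYGB against BWm, whereas Slc39a4 lies near 1 in RYGB against Sham AL, at 0.8 in RYGB against BWm and at 0.21 in BWm against Sham AL.

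Counts over the 6 genes are read beside all genes tested, at an adjusted p under 0.05 in the limma fit, and the genes were proposed with these values known, so the counts describe and do not test. In RYGB against Sham AL, 3 of 6 (Mt1, Mt2 and Slc39a4) were called higher and 0 lower, beside 0.938% of all genes called higher and 0.442% called lower. Mt1 and Mt2 did not overlap between these groups, beside 1.58% of all genes higher and 0.812% lower without overlap. In BWm against Sham AL, 2 of 6 (Mt1 and Mt2) were called higher and 0 lower, beside 1.53% of all genes called higher and 1.3% called lower. Both were higher without overlap, beside 3.46% of all genes higher and 3.39% lower without overlap. In RYGB against BWm, 1 of 6 (Slc39a4) was called higher, beside 4.02% of all genes, and 0 lower, beside 2.34%. In that comparison 0 of 6 were without overlap, beside 4.71% of all genes higher and 2.91% lower without overlap. The median difference of the 6 genes was log2 0.71, -0.02 and 0.48 in RYGB against Sham AL, RYGB against BWm and BWm against Sham AL, where that of all genes was 0, 0 and -0.01.

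The rest of both transporter families was measured through 11 further Slc39a and 8 Slc30a genes. In RYGB against BWm, 5 of these 19 rose and 0 fell, beside 4.02% of all genes called higher. Slc39a7, which releases zinc from the endoplasmic reticulum and Golgi, had a lowest value of 7.21, a median of 7.52 and a highest of 7.68 on the RYGB arrays. It measured 7.07, 6.63, 6.59 and 6.51 in BWm livers. All RYGB arrays lay above all BWm arrays, as they did for 4.71% of all genes. The rise was 1.74-fold (log2 0.8 ± 0.12 SE, limma adjusted p = 0.000544) and passed the threshold in all 28 alternatives. Sham AL lay between the other groups, from 6.97 to 7.22, and neither RYGB minus Sham AL (log2 0.4 ± 0.11, adjusted p = 0.111) nor BWm minus Sham AL (log2 -0.4 ± 0.13, adjusted p = 0.103) passed. Without RYGB replicate 1 the first of these passed (log2 0.46, adjusted p = 0.048), and without BWm replicate 1 the second did (log2 -0.53, adjusted p = 0.0288). With Sham AL replicate 4 left out they were log2 0.37 and -0.43, and neither passed.

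**Figure D4:**
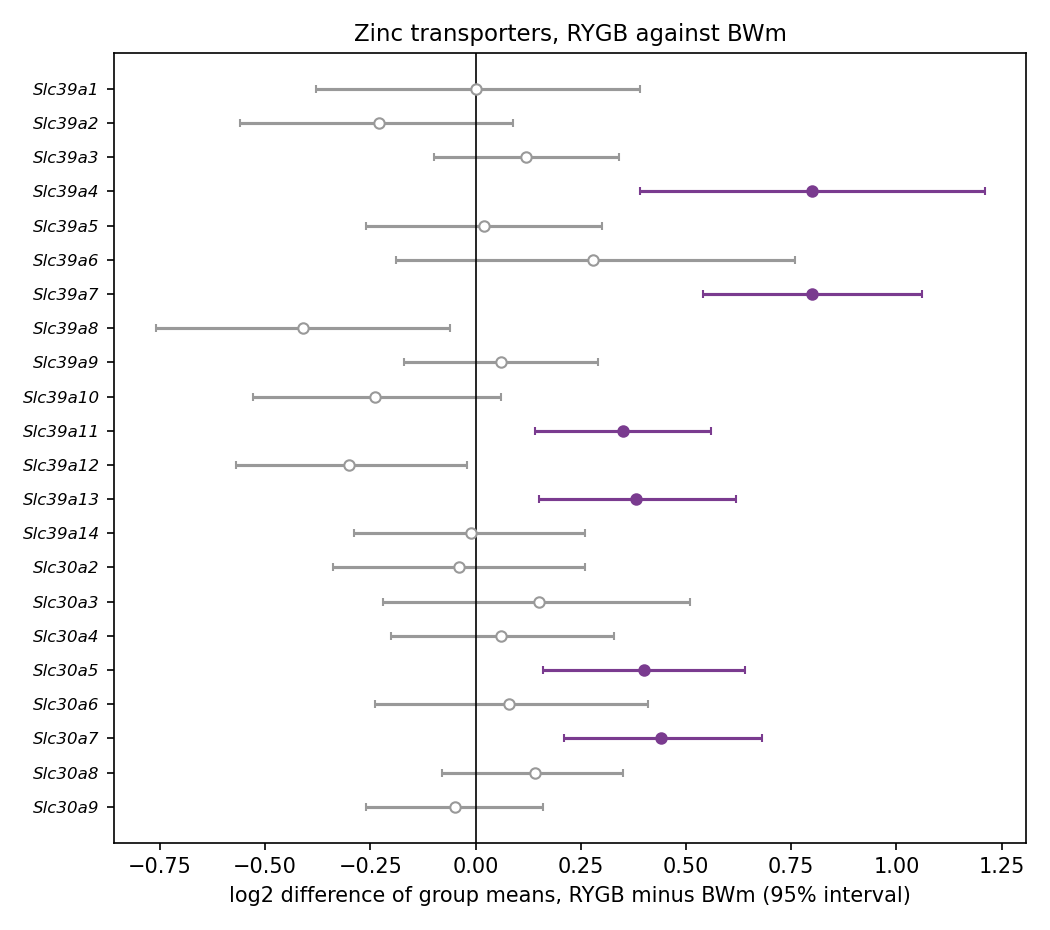
Difference of group means (log2, RYGB minus BWm) for the 14 Slc39a and 8 Slc30a genes measured, with 95% intervals. Filled points passed an adjusted p of 0.05 over all genes; they are Slc39a4, Slc39a7, Slc39a11, Slc39a13, Slc30a5 and Slc30a7, all higher in RYGB.

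The other 4 of these rises were smaller. Slc30a7, which loads zinc into the Golgi, rose by log2 0.44 ± 0.11 (limma adjusted p = 0.0241), with 6.8 to 7.14 in RYGB against 6.45 to 6.73 in BWm livers. Slc30a5, an exporter into the early secretory pathway, rose by log2 0.4 ± 0.11 (adjusted p = 0.0427), with 7.62 to 7.92 in RYGB against 7.2 to 7.59 in BWm livers. Slc39a13, an importer of the Golgi and intracellular vesicles, rose by log2 0.38 ± 0.11 (adjusted p = 0.0486), with 6.31 to 6.69 in RYGB against 5.89 to 6.3 in BWm livers. Slc39a11 rose by log2 0.35 ± 0.1 (adjusted p = 0.0459), with 6.7 to 6.94 in RYGB against 6.28 to 6.67 in BWm livers. The RYGB and BWm arrays did not overlap for any of these 4 genes, beside 4.71% of all genes higher without overlap. The 4 were picked by their calls in this comparison, so this adds no support to the calls. Their calls were easily lost: of 28 alternatives, 7 ended that of Slc30a7, 16 that of Slc30a5, 18 that of Slc39a11 and 21 that of Slc39a13, with differences still between log2 0.29 and 0.5. For each gene 1 of these was the methods' test at its own thresholds, which ask for at least 1.5-fold. None of the 4 differences was that large, so this loss was fixed in advance. With each array's median subtracted, 1 of the 19 genes was called, Slc39a7. Leaving out single arrays gave 1 to 5 calls, among them 1 when RYGB replicate 4 or BWm replicate 1 or 2 was left out. There were 2 when BWm replicate 4, Sham AL replicate 1, Sham AL replicate 2, RYGB replicate 3 or RYGB replicate 5 was left out, and 3 when Sham AL replicate 3 or RYGB replicate 1, 2 or 6 was.

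**Figure D5:**
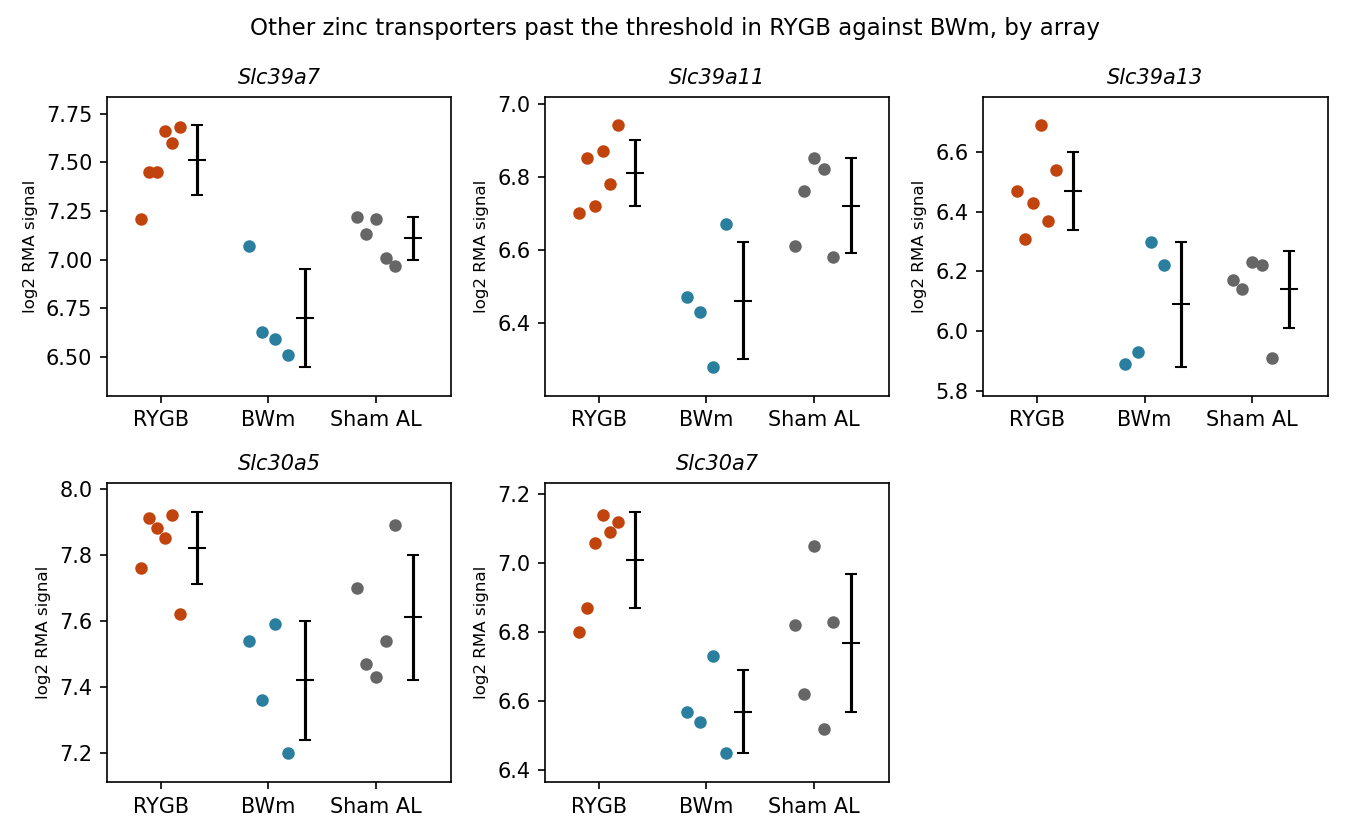
Log2 RMA signal of the 5 further transporters that passed the threshold in RYGB against BWm. Points are arrays (6 RYGB, 4 BWm, 5 Sham AL), bars give the mean and SD, and vertical axes differ between genes and do not start at 0. RYGB arrays lie above all BWm arrays for each gene, and Sham AL arrays reach into the RYGB range for every gene but Slc39a13.

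The remaining 14 transporters ran from log2 -0.3 (Slc39a12) to 0.28 (Slc39a6) in RYGB against BWm and were not called. In RYGB against Sham AL, 0 of the 19 passed in the limma fit, with values from log2 -0.25 (Slc39a10) to 0.4 (Slc39a7), beside 1.38% of all genes called. In BWm against Sham AL it was also 0 of 19, from log2 -0.4 (Slc39a7) to 0.45 (Slc39a12), beside 2.84% of all genes called. Without Sham AL replicate 4, 1 of the 19 was called in BWm against Sham AL, an Slc39a gene called higher, and 0 in RYGB against Sham AL. At an unadjusted p under 0.05 in the limma fit there were 4 of 19 in RYGB against Sham AL, all higher, and 3 of 19 in BWm against Sham AL, 1 higher. The methods' test after Benjamini-Hochberg adjustment gave 0 in both. At its own thresholds it could call none, since they ask for at least 1.5-fold and no difference here reached that. The levels of Slc39a12 and Slc30a8 averaged 2.73 and 1.72, under the lowest array median, and are not distinguishable from background here.

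Of 25 measured zinc enzymes and zinc-binding plasma proteins, 4 fell and 0 rose in RYGB against BWm, with a list median of log2 -0.1. Of all genes, 2.34% were called lower and 4.02% higher in this comparison. Dpys, a zinc hydrolase of pyrimidine breakdown, fell by log2 0.64 ± 0.12 (SE), and Car1, a carbonic anhydrase abundant in red cells, by log2 1.85 ± 0.36. The metallopeptidase gene Mme fell by log2 1.16 ± 0.3 and Gda, guanine deaminase, by log2 0.41 ± 0.12. Mme also fell against Sham AL (log2 -1.41 ± 0.28, limma adjusted p = 0.0146) and was the 1 call of the list there, beside 0.442% of all genes called lower. BWm against Sham AL gave 0 calls in limma, beside 2.84% of all genes. Of 13 copper genes, 1 rose in RYGB against BWm, Steap4, a metalloreductase induced by inflammation (log2 0.9 ± 0.21), beside 4.02% of all genes called higher. In RYGB against Sham AL and BWm against Sham AL 0 of the 13 were called, beside 1.38% and 2.84% of all genes. Of 10 genes of manganese transport and manganese enzymes, Slc39a14 and Slc39a8 among them, Tmem165 of the Golgi rose in RYGB against BWm (log2 0.4 ± 0.1), beside the same 4.02%. Single calls in lists this short are not read as a result about copper or manganese genes. Slc40a1, the iron exporter ferroportin, rose in BWm against Sham AL (log2 0.61 ± 0.15), beside 1.53% of all genes called higher, a call that ended without Sham AL replicate 4. In RYGB against Sham AL 0 of the 10 were called, beside 1.38% of all genes.

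Lists of genes known to respond to glucocorticoids, to interleukin 6 and to oxidants gave calls in these comparisons, and their part in the metallothionein levels was not tested. Of 15 glucocorticoid-responsive genes, 3 rose in BWm against Sham AL (median log2 0.47) and 4 without Sham AL replicate 4, among them Fkbp5 (log2 1.31 ± 0.25) and Pck1 (log2 0.59 ± 0.12). Of all genes, 1.53% were called higher there. In RYGB against BWm 6 fell and 0 rose (median log2 -0.54), beside 2.34% of all genes called lower and 4.02% called higher, with Dusp1 at log2 -1.15 ± 0.21 and Tsc22d3 at -0.77 ± 0.14. In RYGB against Sham AL 1 of the 15 rose, Igfbp1, beside 0.938% of all genes, with a median of log2 -0.07, where all genes had 0. Of 27 acute phase genes and genes of the interleukin 6 response, which here exclude the metallothioneins, 4 rose in RYGB against Sham AL and 2 without Sham AL replicate 4, beside 0.938% of all genes called higher. Among the 4 were Apcs, the serum amyloid P gene, at log2 1.71 ± 0.28 and Stat3, the factor that carries the interleukin 6 signal, at log2 0.37 ± 0.09. In RYGB against BWm 5 rose and 1 fell, beside 4.02% of all genes called higher and 2.34% called lower. In BWm against Sham AL 1 rose, the interleukin 6 receptor gene Il6ra, at log2 1.09 ± 0.17, beside 1.53% of all genes called higher. Of 17 targets of the oxidant-sensing factor NRF2, 11 rose in RYGB against BWm, beside 4.02% of all genes called higher, and 8 in RYGB against Sham AL, beside 0.938%, and 0 fell in either. In BWm against Sham AL 0 of the 17 rose and 4 fell (median log2 -0.46), beside 1.53% of all genes called higher and 1.3% called lower, with Srxn1 at log2 -1.27 ± 0.22.

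Marker lists of immune cells overlapped between the groups, with their highest arrays in RYGB, and their part in the metallothionein levels was not tested. The mean of 10 neutrophil markers, relative to all arrays, ran from -0.16 to 0.71 in RYGB, from -0.3 to 0.05 in BWm and from -0.33 to 0.07 in Sham AL, and that of 10 Kupffer cell markers from -0.06 to 0.43, from -0.4 to 0.29 and from -0.43 to 0.14. Of these markers, 1 Kupffer cell and 0 neutrophil genes were called in RYGB against Sham AL and 0 in the other comparisons. Of all genes, 1.38% were called in RYGB against Sham AL, 6.36% in RYGB against BWm and 2.84% in BWm against Sham AL. Counts this small in such short lists are not read as a result about these cells. The mean of 10 hepatocyte markers ran from -0.26 to 0.06 in RYGB, from 0.05 to 0.17 in BWm and from -0.16 to 0.1 in Sham AL.

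The genes whose pattern over the 15 arrays was most like that of the mean of Mt1 and Mt2 were named by Pearson r, as a description, since the points share the 3 groups. They were Nipal1, a magnesium transporter (r = 0.88), Cyp39a1, an oxysterol hydroxylase (0.88), Zfas1, a small nucleolar RNA host gene (0.87), Stat3 (0.85), Igfbp1 (0.84), Arrdc4 (0.84), the leptin receptor gene Lepr (0.84) and Mir204 (0.83). With group means removed their r lay between 0.41 for Nipal1 and 0.64 for Arrdc4 and Mir204. Mean Nipal1 was 6.87 in RYGB, 6.71 in BWm and 5.01 in Sham AL livers, and mean Cyp39a1 was 7.88, 8.23 and 5.93 in the same groups. The Mir204 cluster had group means of 1.27, 1.17 and 0.88, under the array medians.

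The importers had other companions. Slc39a14 was most like Lbp, the lipopolysaccharide-binding protein of the acute phase (r = 0.91, and 0.87 with group means removed), followed by Grn (0.9 and 0.78) and Cers6 (0.88 and 0.78). Slc39a8 was most like Crp, C-reactive protein (0.96 both ways), then Nags, which makes the activator of the urea cycle (0.95 and 0.94), and Xpnpep3 (0.92 and 0.86). Slc39a4 was most like Asah1, the lysosomal ceramidase (0.92 and 0.72), Cyba, a subunit of the phagocyte oxidase (0.91 and 0.83), and Hsbp1l1 (0.9 and 0.61). Mtf1 was most like Ccnt1 (0.92 both ways), Cdc37l1 (0.91 and 0.89) and Pex13 (0.9 and 0.88). Among the 6 genes themselves, Mtf1 and Slc39a8 had an r of 0.75 (0.71 with group means removed), and Slc39a4 had 0.66 with Mt1 and 0.7 with Mt2 (0.55 and 0.6). Slc39a14 had 0.7 with Mt1 and 0.73 with Mt2, and 0.13 and 0.28 with group means removed.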

How the data were processed

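The authors ran RMA over 15 GeneChip Mouse Gene 2.0 ST arrays in Affymetrix Expression Console 1.4.1.46, per the submitters' processing notes, and deposited log2 values for 41345 clusters (0.18 to 13.05, 0 missing). The genome build, like the annotation version, is not given in the sources used here. Scanner files were not used, which leaves signal over background unmeasured. The number of arrays limits the precision.

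Of the clusters, 23521 had 1 symbol in the probe table, 1814 had several and 16010 none, and those with 1 were kept. By Entrez number 23328 matched RefSeq, and 0 symbols changed. Where several clusters named a gene (1082 genes), the brightest on average stood for it, leaving 22180 genes, with no filter on level.

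The 3 comparisons were two-sided contrasts in 1 limma fit (limma 3.58.1, R 4.3.3; 12 residual and 5.85 prior degrees of freedom), adjusted by Benjamini-Hochberg over all genes. Genes past an adjusted p of 0.05 are called. SE and 95% intervals come from this fit, which was tested on simulated data. Tables and figures were made with Python 3.11.15, pandas 2.3.3 and matplotlib 3.10.9.

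The members and lists were chosen with earlier results of these data known. Named genes were the members, other family genes called in a comparison, up to 4 called genes with the smallest p of each other list, and the genes most like a member by Pearson r (8 for the metallothioneins, 3 for others; predicted, olfactory, vomeronasal and Mup genes left out). Marker genes were named after their values were seen. Same-numbered arrays did not pair: their deviations from group means had an r of -0.17 to 0.19, over 0.1 in 4 of 13 pairs.

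The alternatives tried were a filter on level, quantile normalization, array medians subtracted, cluster means per gene, every cluster, only the compared groups, a trended or robust prior, array weights, a replicate block, the description number, the methods' test and each array left out. The methods' test compared each pair of groups by analysis of variance.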

Additional observations from a re-analysis of the deposited data

How the results depend on the processing

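The calls of the members were kept in most of 28 alternatives. Of 504 recomputed values for the 6 members, 493 stayed on the same side of the threshold, 8 lost and 3 gained a call. Most of the 504 belong to differences that were not called in the main fit and could not lose a call. Among the called differences, Slc39a4 in RYGB against BWm lost its call in 3 of 28 alternatives, and each of the others in 1 of 28. Of the values called in either fit, 0 changed direction. Uncalled differences could change sign. Over the alternatives, RYGB minus BWm ran from log2 -0.14 to 0.31 for Mt1 and from -0.08 to 0.51 for Mt2. The sign also changed for Slc39a14 in that comparison and for Mtf1 in RYGB against Sham AL. The methods' test after Benjamini-Hochberg called 0 members in every comparison, and 54, 833 and 90 genes in RYGB against Sham AL, RYGB against BWm and BWm against Sham AL, where limma called 306, 1411 and 629. At the methods' own thresholds (unadjusted p under 0.05 and at least 1.5-fold) it called 3, 1 and 2 members in the same order. In RYGB against BWm it called 857 genes and 1 other transporter at these thresholds. All transcript clusters gave 169 genes in RYGB against Sham AL. The replicate block gave 174, 903 and 325 genes in the order above, and 0 members (Slc39a4 at log2 0.71, adjusted p = 0.0859) and 1 other transporter in RYGB against BWm. It ended the call of no member in the comparisons with Sham AL. The numbers are not shown to pair the arrays: 2 of 15 arrays correlated best with an array of their own number. The description number as a covariate gave 2 members in RYGB against BWm, Slc39a8 (lower) being added. For the other transporters in RYGB against BWm, where 5 were called, quantile normalization, the compared groups only and the description number gave 3 each, all clusters and the methods' test after Benjamini-Hochberg 2 each, and subtracted medians 1, which also gave 1 in BWm against Sham AL.

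Without 1 array in turn, 144 to 398 genes were called in RYGB against Sham AL (144 without Sham AL replicate 2, 176 without RYGB replicate 4, 200 without RYGB replicate 6). In RYGB against BWm it was 930 to 1544 (930 without BWm replicate 3) and in BWm against Sham AL 284 to 646 (284 without BWm replicate 2 or 3, 382 without Sham AL replicate 2). Members called were 3, 0 to 1 and 2 to 3 in the same order, and other transporters 0 to 1, 1 to 5 and 0 to 2. Levels near the array medians could not be judged.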
